A study of Mus musculus with 8 samples.

Results

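Pleiotrophin, midkine and the cell-surface proteins that bind them were followed in RNA from mouse knee joints. The set was 8 genes, taken by name from a table of 20681 gene rows: the ligand genes Ptn and Mdk, the receptor genes Ptprz1 and Lrp1, and the syndecan genes Sdc1, Sdc2, Sdc3 and Sdc4. All 8 were in the table and all 8 passed the filter on low values that left 14949 genes for testing. The set was chosen by family with the measured difference between the 2 groups of libraries, in these same normalised read counts, already known, so the difference of each of these genes is given as a description and supports nothing on its own.

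The libraries were 4 labelled control and 4 labelled knockout, made by poly-A sequencing of whole knee joints. Per the labels, all 8 libraries came from mice with an aggrecan-driven Cre (Acan-Cre) and floxed Loxl2 alleles (Loxl2 fl/fl). This design deletes the lysyl oxidase-like 2 gene in the cells that make Cre, which include chondrocytes but not most other cells of a joint. The control joints were vehicle-treated and their library names carry LOXL2wt; the library names of the other group carry LOXL2ko, and the labels do not say what those animals received in place of vehicle. The library names of both groups carry DMM, which usually stands for surgical destabilisation of the medial meniscus; ages, sexes and times after injury are not given in the sources used here. Nothing in the labels says that the libraries came from separate animals, so the tests measure the spread between these libraries, which may be partly technical.

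The libraries held 13991000 to 17411617 reads assigned to genes. Loxl2 itself was not lower in the libraries labelled knockout: it stood at 282, 349, 1135 and 311 normalised reads across the control libraries (replicates 1 to 4), against 893, 1468, 960 and 1518 across those labelled knockout. Control replicate 3 stood apart from the other control libraries for that gene, the groups overlapped (log2 difference 1.44, limma adjusted p = 0.0294, a call lost on dropping control replicate 1, 2 or 4, or replicate 2 or 4 of the other group and not made by edgeR or DESeq2), and the groups are therefore called by their labels throughout. Genes of chondrocytes, the cells the Cre is aimed at, were present (11 of 12 listed markers in the table, with Chad at 1169 ± 521 and 1510 ± 305, SD, n = 4 per group), and 12 skeletal muscle genes held 13.2% to 13.6% of all normalised reads in the control libraries and 7.85% to 10.4% in those labelled knockout.

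Pleiotrophin and midkine form a family of small, basic, heparin-binding growth factors that are abundant in developing cartilage, bone and nerve and are often made again after injury. Both bind the sulfated sugar chains of cell-surface proteoglycans and of the receptor-type phosphatase Ptprz1, whose activity pleiotrophin inhibits, while Lrp1 is a large endocytic receptor that binds midkine among many other ligands. Syndecans are transmembrane proteoglycans that carry heparan sulfate, and in some cases chondroitin sulfate, and hold growth factors at the cell surface. Their extracellular parts can be cut off by metalloproteinases.

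In the libraries labelled knockout all 8 genes had the higher mean. Of the 8, 6 were called higher by limma (adjusted p under 0.05 over all genes tested), beside 11.6% of all tested genes called higher and 23.2% called in either direction. For the same 6, Ptn, Mdk, Lrp1, Sdc1, Sdc3 and Sdc4, the groups did not overlap, a pattern that 11.7% of all tested genes showed in that direction and 25.1% in either. Since the set was chosen with this contrast known, nothing is read from these counts. The genes differed widely in size of difference, from a log2 difference of 0.40 for Sdc4 to 3.79 for Ptn, while the median over all tested genes was 0.00.

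**Figure D1:**
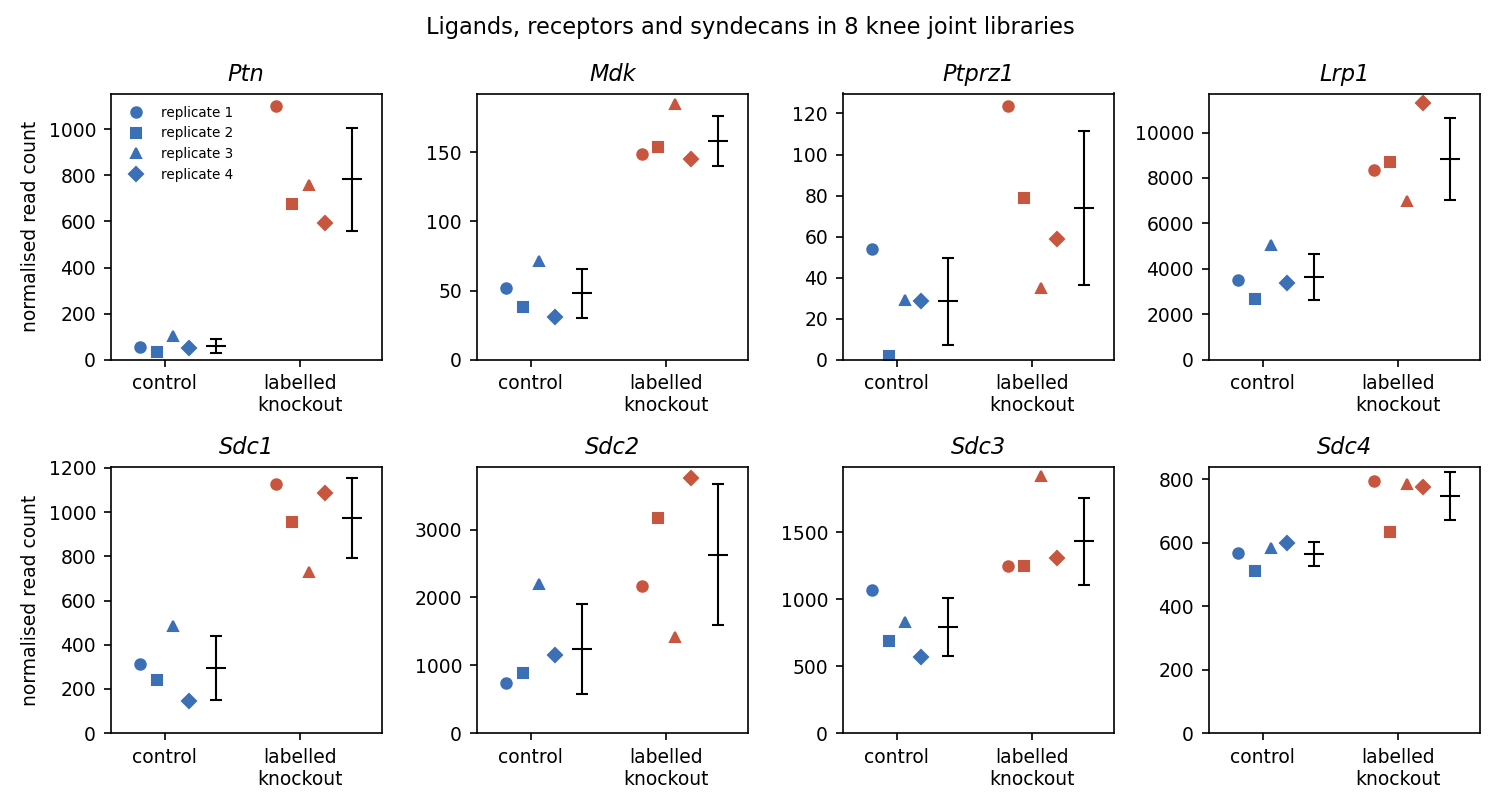
Normalised read count (vertical axes, linear from 0, a different scale in each panel) of each gene in the 4 control libraries (blue) and the 4 libraries labelled knockout (red); marker shapes are replicate numbers, which do not pair libraries across groups, and black bars are the mean ± SD. The groups are apart for every gene except Ptprz1 and Sdc2, and control replicate 3 is the highest control library for 5 of the 8 genes.

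Ptn, the pleiotrophin gene (ENSMUSG00000029838.11, chromosome 6, 36714929 to 36810220 on the minus strand of mm10), stood at 54.1, 31.3, 103 and 49.3 normalised reads across the control libraries (replicates 1 to 4), against 1102, 677, 759 and 592 across those labelled knockout. The lowest library labelled knockout was 5.75 times the highest control library. The group means were 59.4 ± 30.6 and 782 ± 224 (SD, n = 4 each), and on log2 values with a pseudocount of 1 the difference was 3.79 (standard error, SE, 0.32). Among the genes tested, 6 had a larger positive difference. The control values rest on 31 to 110 reads per library.

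Mdk, the midkine gene (ENSMUSG00000027239.14, chromosome 2, 91929805 to 91932297, minus strand), stood at 51.9, 38.4, 71.0 and 30.7 normalised reads across the control libraries (replicates 1 to 4), against 149, 154, 185 and 145 across those labelled knockout. The groups were apart, with the lowest library labelled knockout at 2.04 times the highest control library. Means were 48.0 ± 17.7 and 158 ± 18.2 (SD, n = 4 each; log2 difference 1.76, SE 0.25). Mdk was the steadier ligand among the libraries labelled knockout, with a coefficient of variation of 11.5% against 28.6% for Ptn.

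The balance between the ligands also differed between the groups. Measured per 1000 bases of annotated exon, Ptn was below Mdk in every control library, at 0.315 to 0.620 of the level of Mdk. In every library labelled knockout it was above, at 1.57 to 2.86 times the level of Mdk. The order in the control libraries rests on the annotated lengths used (3433 bases for Ptn, 1324 for Mdk). In normalised reads not divided by length, Ptn was above Mdk in control replicates 1, 3 and 4 and below it in replicate 2 (31.3 against 38.4). Per length, Ptn made up 31.7 ± 6.57% of the summed ligand level in control joints, against 64.8 ± 6.22% in those labelled knockout (SD, n = 4 each). The sum of both ligands went from 53.5 ± 21.6 to 347 ± 65.8 normalised reads per 1000 exon bases.

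**Figure D2:**
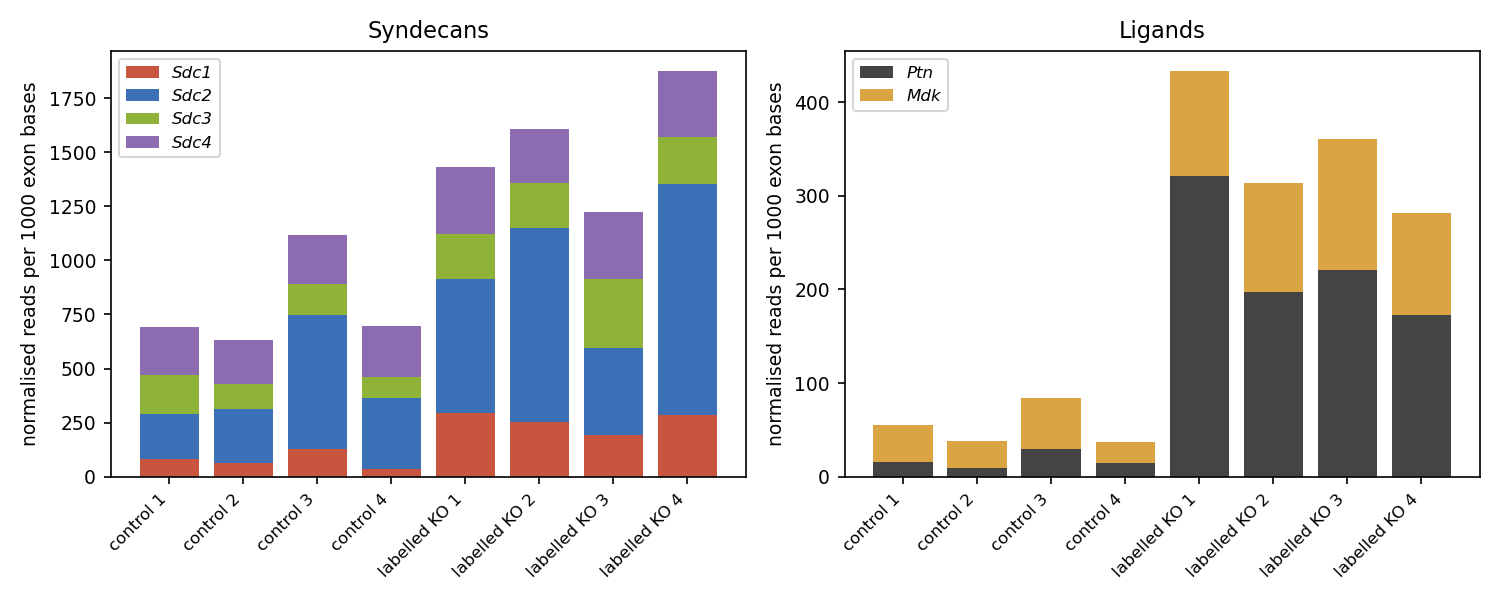
Stacked levels per library, in normalised reads per 1000 exon bases on linear axes from 0, of the 4 syndecan genes (left) and the ligand genes (right); "labelled KO" marks the libraries labelled knockout. The share of Ptn among the ligands is 23.9% to 38.3% in the control libraries and 61.1% to 74.1% in the others, and Sdc2 is the widest band among the syndecans in 7 of the 8 libraries.

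Promoters are shown for Ptn, the gene of largest difference, and for Sdc1 and Sdc4, the syndecan genes of largest and smallest difference, to set their start regions side by side. The windows run from 250 bases before to 50 after the RefSeq start (GRCm38.p6), and 6 of the 8 genes had one. Capitals mark the TATA-box core TATAA and, separately, the GC-box core GGGCGG, each searched on both strands with overlapping matches counted once; a match is a run of letters and not evidence of a bound factor.
Ptn, chr6:36810130-36810429, minus strand: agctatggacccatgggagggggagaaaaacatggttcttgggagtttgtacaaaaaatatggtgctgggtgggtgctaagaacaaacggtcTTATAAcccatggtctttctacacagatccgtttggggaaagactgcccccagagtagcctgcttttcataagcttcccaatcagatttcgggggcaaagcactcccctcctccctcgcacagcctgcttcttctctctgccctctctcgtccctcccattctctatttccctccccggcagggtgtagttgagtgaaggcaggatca
Sdc1, chr12:8771146-8771445, plus strand: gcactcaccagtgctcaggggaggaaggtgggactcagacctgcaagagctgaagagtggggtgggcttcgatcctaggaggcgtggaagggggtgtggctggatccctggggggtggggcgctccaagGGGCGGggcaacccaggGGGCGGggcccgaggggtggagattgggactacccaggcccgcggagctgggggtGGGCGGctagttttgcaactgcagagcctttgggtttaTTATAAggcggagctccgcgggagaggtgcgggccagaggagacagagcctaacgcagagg
Sdc4, chr2:164443139-164443438, minus strand: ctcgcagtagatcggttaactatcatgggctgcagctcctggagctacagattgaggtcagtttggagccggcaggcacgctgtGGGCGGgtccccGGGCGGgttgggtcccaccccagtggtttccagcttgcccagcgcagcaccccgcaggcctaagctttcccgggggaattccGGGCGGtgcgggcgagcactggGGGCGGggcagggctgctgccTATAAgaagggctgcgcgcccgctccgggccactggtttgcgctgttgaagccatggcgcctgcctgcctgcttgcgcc
The Ptn window held no GGGCGG and 6 CpG dinucleotides, while 35.7% of all 32851 promoter windows held GGGCGG and the median window had 7 CpG. Sdc1 held GGGCGG 3 times and 14 CpG, Sdc4 held it 4 times and 22 CpG, and the windows of Sdc3 (3 times, 44 CpG), Ptprz1 (2 times, 29 CpG) and Lrp1 (once, 16 CpG) also had it. TATAA, held by 24.9% of all windows, began 29 bases before the start in Sdc4 (position -29), and in Sdc1 and Ptn its match began at -11 and -158. The AP-1 letters TGANTCA, found in 7.81% of all windows, were in none of the 6, and neither were the TEAD letters GGAATG (14.7% of all windows) or the E-box letters CACGTG (7.15%).

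Among the receptors, Lrp1 was abundant and Ptprz1 had few reads. Lrp1 (ENSMUSG00000040249.15, chromosome 10, 127538161 to 127621148, minus strand) stood at 3525, 2670, 5040 and 3355 normalised reads across the control libraries (replicates 1 to 4), against 8366, 8716, 6981 and 11288 across those labelled knockout. Every library labelled knockout was above every control library, by at least 1.39 times, and the means were 3647 ± 999 and 8838 ± 1797 (SD, n = 4 each; log2 difference 1.29, SE 0.20). In the annotation the antisense gene Gm16217 overlaps Lrp1. Since no strand setting of the read counting is given in the sources used here, reads of Gm16217 may be part of the count.

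Ptprz1 (ENSMUSG00000068748.7, chromosome 6, 22875502 to 23052916, plus strand) had 54.1, 2.02, 29.0 and 28.5 normalised reads in control replicates 1 to 4, the second of these resting on 2 reads. It had 124, 78.7, 34.8 and 59.0 in knockout replicates 1 to 4, and knockout replicate 3 lay below control replicate 1, so the groups overlapped. Its log2 difference of 1.80 (SE 0.80) was not called. The estimate leaned on the control library with 2 reads: without control replicate 2 it was 0.90. The coefficient of variation was 74.9% in the control libraries and 50.8% in those labelled knockout.

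The syndecan genes differed in level, in spread and in size of difference. Sdc1 (ENSMUSG00000020592.14, chromosome 12, 8771323 to 8793715, plus strand), a syndecan best known from epithelia and plasma cells, stood at 314, 239, 484 and 145 normalised reads across the control libraries (replicates 1 to 4), against 1125, 955, 728 and 1088 across those labelled knockout. The groups were apart, with means of 295 ± 144 and 974 ± 180 (SD, n = 4 each; log2 difference 1.83, SE 0.31). Marker genes of those cell types are given beside it. The summed level of 6 plasma cell genes was 58.9 to 446 in the control libraries and 38.7 to 359 in those labelled knockout, with 0 of 2 tested members called. Of 7 keratinocyte genes 4, among them Krt5 and Krt14, were not in the table, and the other 3 summed to 45.4 to 55.1 and 27.9 to 74.4.

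Sdc3 (ENSMUSG00000025743.14, chromosome 4, 130792537 to 130826319, plus strand), known from nerve, muscle stem cells and growth cartilage, had 1073, 692, 833 and 568 normalised reads in control replicates 1 to 4. In knockout replicates 1 to 4 it had 1251, 1246, 1922 and 1312, so that the groups were apart and replicate 3 was well above the other libraries labelled knockout. Means were 792 ± 216 and 1432 ± 327 (SD, n = 4 each; log2 difference 0.87, SE 0.20). The antisense genes Gm12970 and Gm26716 overlap Sdc3, with the same doubt about strand as for Lrp1.

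Sdc4 (ENSMUSG00000017009.3, chromosome 2, 164424247 to 164443887, minus strand), the syndecan of focal adhesions, had the smallest coefficient of variation of the 8 genes in both groups (6.86% and 10.1%). It stood at 568, 510, 581 and 599 normalised reads across the control libraries (replicates 1 to 4), against 793, 634, 785 and 775 across those labelled knockout. The lowest library labelled knockout was only 1.06 times the highest control library, and the means were 565 ± 38.7 and 747 ± 75.6 (SD, n = 4 each). With a log2 difference of 0.40 (SE 0.10), Sdc4 was no longer called by limma when any 1 of 3 libraries was dropped: control replicate 2 (adjusted p = 0.0599), knockout replicate 1 (0.0530) and knockout replicate 4 (0.0591).

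Sdc2 (ENSMUSG00000022261.6, chromosome 15, 32920723 to 33034935, plus strand), the syndecan typical of fibroblasts and other mesenchymal cells, stood at 733, 890, 2196 and 1151 normalised reads across the control libraries (replicates 1 to 4), against 2175, 3166, 1418 and 3762 across those labelled knockout. Control replicate 3 was above knockout replicates 1 and 3, so the groups overlapped. Means were 1243 ± 659 and 2630 ± 1040 (SD, n = 4 each), and the log2 difference of 1.12 (SE 0.37) was not called (limma adjusted p = 0.0521). Dropping control replicate 3 gave a call at 1.44 (limma adjusted p = 0.0128), and so did dropping knockout replicate 3, at 1.38 (limma adjusted p = 0.0218).

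**Figure D3:**
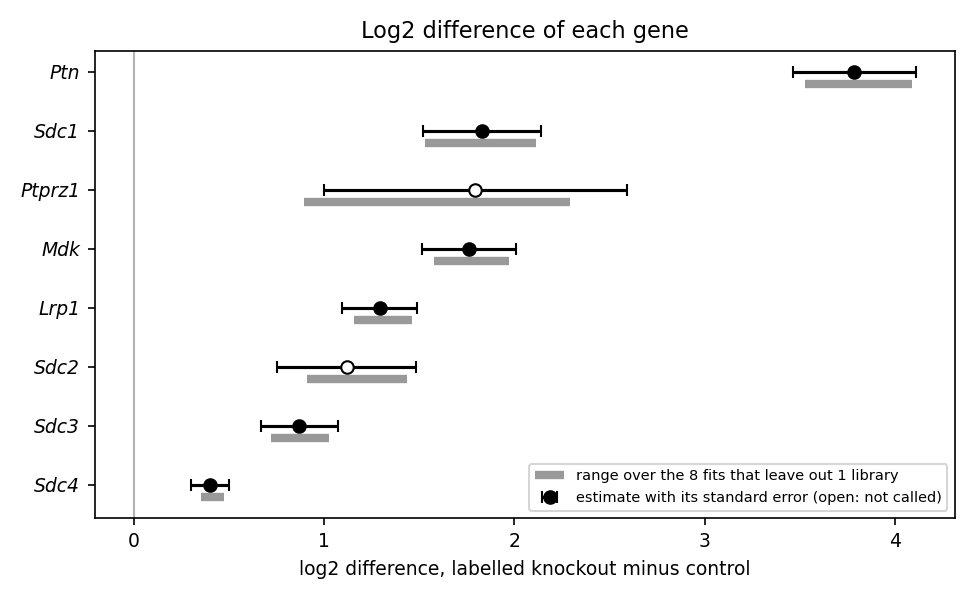
Log2 difference of each gene (horizontal axis, libraries labelled knockout minus control, values with a pseudocount of 1) with its standard error from the fit to all genes; filled points were called and open points were not, and grey bars span the 8 fits that each leave out 1 library. Ptn lies apart from the rest at 3.79, Ptprz1 has the widest bar, from 0.90 to 2.29, and no grey bar reaches 0.

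Levels of different genes were set side by side per 1000 exon bases. In the control group the order of the means was Sdc2 (352 ± 187), Sdc4 (222 ± 15.2), Lrp1 (206 ± 56.4), Sdc3 (132 ± 36.1), Sdc1 (77.6 ± 37.7), Mdk (36.2 ± 13.4), Ptn (17.3 ± 8.91) and Ptprz1 (1.99 ± 1.49; SD, n = 4 throughout). The ranges of each pair of neighbours in that order overlapped, except those of Ptn and Ptprz1. In the group labelled knockout the order was Sdc2 (746 ± 295), Lrp1 (499 ± 101), Sdc4 (293 ± 29.7), Sdc1 (256 ± 47.2), Sdc3 (239 ± 54.7), Ptn (228 ± 65.2), Mdk (119 ± 13.7) and Ptprz1 (5.20 ± 2.64). There the ranges were apart between Lrp1 and Sdc4, between Ptn and Mdk, and between Mdk and Ptprz1, and overlapped for the other neighbours. Ptn in the libraries labelled knockout had thus a level close to those of Sdc1 and Sdc3, whereas in the control libraries it was below both in each of the 4.

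**Figure D4:**
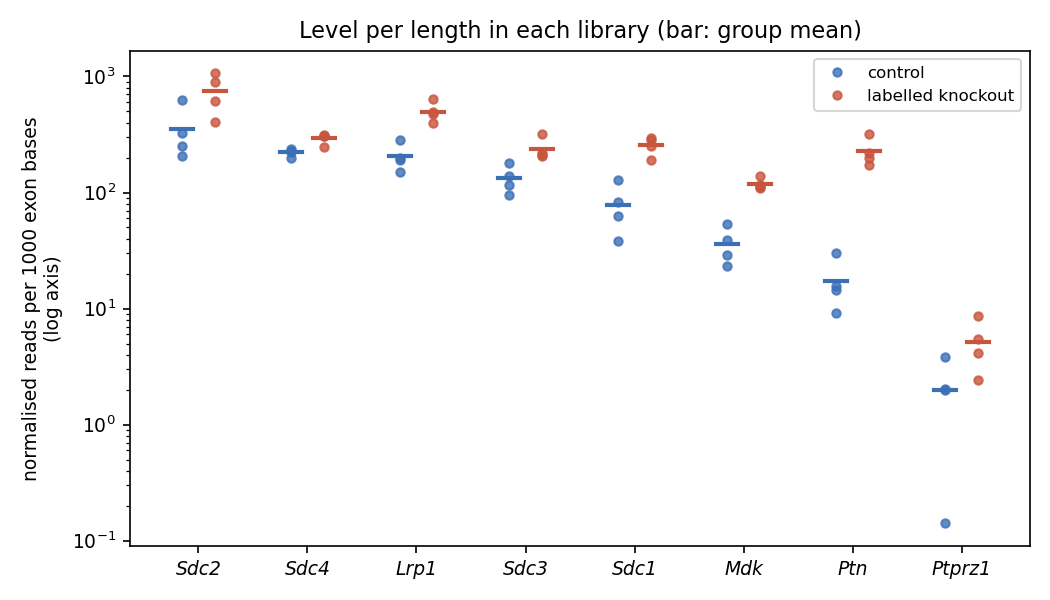
Level of each gene per 1000 exon bases (vertical log axis) in each control library (blue) and each library labelled knockout (red), ordered by the control mean, with bars at the group means. Ptn moves from seventh place among the control means (17.3) to a level beside Sdc1 and Sdc3 (228), and Ptprz1 is lowest in both groups.

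Within the syndecan family, Sdc1 was the gene whose share did not overlap between the groups. Sdc1 was 9.67 ± 2.92% of the summed syndecan level per length in control joints, with a range of 5.47% to 11.9%, against 16.8 ± 2.57% in those labelled knockout, with a range of 15.2% to 20.6%. Sdc4 was 29.6 ± 6.15% and 19.7 ± 4.63%, with ranges that overlapped (20.4% to 33.9% and 15.5% to 25.2%). The shares of Sdc2 (43.2 ± 10.9% and 47.2 ± 11.4%) and Sdc3 (17.6 ± 6.08% and 16.4 ± 6.70%) overlapped as well (SD, n = 4 each). These shares come from the same contrast and carry no test.

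The libraries of one group did not move as a block. Control replicate 3, the control library with the most Loxl2, was the highest control library for Ptn, Mdk, Lrp1, Sdc1 and Sdc2 and the lowest for none. Control replicate 2 was the lowest control library for 4 genes. Among the libraries labelled knockout, replicate 1 was the highest for Ptn, Ptprz1, Sdc1 and Sdc4, while replicate 3 was the lowest for Ptprz1, Lrp1, Sdc1 and Sdc2 and the highest for Mdk and Sdc3. Without control replicate 3, the differences of Ptn, Mdk, Sdc1, Sdc3, Sdc4 and Lrp1 stayed called, and Sdc2 was called as well.

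Markers of some other cell types moved with the groups. Of 8 macrophage genes 7 were called higher, and their summed level was 1429 to 3300 in the control libraries and 4931 to 6858 in those labelled knockout. Of 10 fibroblast genes 6 were called higher, with sums of 50432 to 143814 and 183460 to 291609, control replicates 1 and 3 being the highest of the control group. Of 7 osteoclast genes 6 were called higher (1842 to 13767 and 10088 to 38544), and of 7 osteoblast genes 3 (1066 to 7336 and 6030 to 12311). On both lists control replicate 1 gave the highest control sum, followed by control replicate 3 (2488 and 2647). The groups were apart for 1 of the 7 genes on each list. Of all tested genes, 11.6% were called higher. Erythroid genes had a negative difference in 7 of 7, with sums of 16755 to 98968 and 4040 to 42558, and neutrophil genes in 8 of 8, with sums of 1389 to 5671 and 1113 to 2707; 0 of either list were called by limma. Of 12 skeletal muscle genes 4 were called lower and 12 had a negative difference. The most abundant gene of each list had log2 differences of 1.58 (Csf1r, macrophages), 1.68 (Col1a1, fibroblasts), 2.53 (Ctsk, osteoclasts) and 2.27 (Ibsp, osteoblasts), all called, and of -1.07 for the muscle myosin gene Myh4, which was not called. No listed gene of these 5 cell types was at 0 in all libraries. In whole joints, more cells of a type and more RNA per cell cannot be told apart, and the part of these tissues in the differences of the ligand, receptor and syndecan genes was not tested. With the muscle score (the mean log2 value of the 12 muscle genes) as a covariate, 0 of the 8 genes were called and 0 of all genes tested by limma, 707 of them with an unadjusted p under 0.05. Group membership held 83.2% of the score's variance, so that score and group could hardly be told apart. The log2 difference of Ptn in that fit was 3.87 (SE 0.83) and that of Lrp1 was 0.38 (SE 0.37). Those of Sdc2 (-0.38, SE 0.77) and Ptprz1 (-0.70, SE 1.84) were below 0 by less than their SE.

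For Schwann cells, which share Ptn and Ptprz1 with developing glia, the summed level of 8 genes was 1572 to 2279 in the control libraries and 1871 to 2688 in those labelled knockout. Of the 8, 3 had a positive difference, 2 of them called higher, and the median log2 difference was -0.17. Endothelial genes summed to 4534 to 6074 and 3521 to 7336 with 0 of 7 called, and fat cell genes to 2352 to 4072 and 2333 to 3353 with 0 of 6 called. The 11 chondrocyte genes in the table, all tested, summed to 1821 to 9541 and 4085 to 5206. Of them 1 was called higher, and for none were the groups apart in either direction.

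The genes whose pattern over the 8 libraries was most like that of each of the 8 genes were found by the root mean square difference of log2 values centred on each gene's mean, among 11623 tested genes with a mean of at least 50. For Ptn they were Postn, the matricellular protein periostin (0.42), Aspg (0.46) and Col16a1, a fibril-associated collagen chain (0.47), against a median of 1.98 over the genes compared. For Mdk they were Tmem45a (0.23), Rcn3 (0.25) and Ephb3 (0.25), with a median of 0.98. For Lrp1 they were Anpep (0.09), Dpysl3 (0.10) and Dap (0.10), and for Sdc1 Ptk7 (0.14), Zfp469 (0.19) and Adamts2 (0.20), the last a procollagen N-proteinase. Sdc2 was nearest to Msx1 (0.14), Sulf1 (0.17), which removes sulfate from heparan sulfate, and Fstl1 (0.17). Sdc3 was nearest to Pcgf2 (0.12), Galns (0.16) and Mmgt2 (0.18), and Sdc4 to Cox8a (0.06), Tacc1 (0.07) and 4833420G17Rik (0.08). Ptprz1 had no close neighbour: Dmp1, a gene of osteocytes, was at 0.56, Pi15 at 0.57 and Slit2 at 0.58. The measure takes in the difference between the groups, so genes with a similar difference score as alike; all points come from the same 8 libraries.

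The surrounding pathway was described with 8 lists holding 118 genes, of which 112 were in the table and 101 were tested. Of those, 38 were called higher and 6 lower, with a median log2 difference of 0.41, beside 11.6% of all tested genes called in each direction and a median of 0.00. Under a scaling that leaves out muscle, erythroid and neutrophil genes and the 50 highest genes of each library, the median over all tested genes moved to 0.15 and the calls over all genes from 1732 higher and 1729 lower to 2773 higher and 759 lower, and those on the pathway lists to 49 higher and 1 lower. This scaling divides each library by 1 factor and so moves all genes by nearly the same amount. By construction, the differences of the 8 genes less that shift, from 0.40 for Sdc4 to 3.79 for Ptn, repeat the main fit. Without 1 library the pathway calls went from 44 to 27 (control replicate 2), 26 (control replicate 4), 27 (knockout replicate 2) or 21 (knockout replicate 4).

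Of the other receptors of the ligands, 11 were tested. Of these, 4 were called higher and 0 lower, with a median of 0.29: Notch2 (355 ± 37.4 and 544 ± 92.4, log2 difference 0.61), the phosphatase gene Ptprs, which also binds glycosaminoglycan chains (1865 ± 259 and 2557 ± 113, 0.46), and the integrin subunit genes Itgav (635 ± 80.1 and 1027 ± 204, 0.68) and Itgb3, named here because the count is small (376 ± 243 and 839 ± 314, 1.27). The limma adjusted p-values of these 4 were 0.0132, 0.0141, 0.0151 and 0.0378. For Itgb3 the groups overlapped, with control replicate 1 (735) above knockout replicates 2 (568) and 3 (632), and it was not called by edgeR or DESeq2 (adjusted p of 0.0641 and 0.0589), nor by limma on dropping control replicate 2, 3 or 4, or replicate 1 or 4 of the other group (adjusted p-values of 0.0699 to 0.1001). The other 7 were not called. Alk, the receptor tyrosine kinase linked to both ligands, was under the filter, listed at 0 to 2.02 normalised reads in the control libraries and 2.64 to 6.98 in those labelled knockout.

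Of the other heparan sulfate proteoglycans, 8 were tested. Of these, 1 was called higher and 1 lower (25% called, close to the 23.2% of all tested genes). Agrn, the gene of the basement membrane proteoglycan agrin, rose from 614 ± 64.7 to 858 ± 97.6 (log2 difference 0.48, limma adjusted p = 0.0153). Gpc1, glypican 1, fell from 5921 ± 244 to 4418 ± 456 (-0.43, limma adjusted p = 0.0124), a call that was not kept under the scaling without muscle genes (-0.27), where the list had 2 higher and 0 lower. Hspg2, the gene of perlecan, was at 4564 ± 513 and 5495 ± 981 and was not called. Without knockout replicate 1, its lowest library in that group, and under quantile normalisation it was called higher by limma.

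Heparan sulfate and chondroitin or dermatan sulfate chains start on a shared linker and are then built and edited by different enzymes. Of 23 tested genes on the heparan sulfate list 4 were called higher and 2 lower (median 0.26). That is 26.1% called, close to the 23.2% of all tested genes. That list holds 6 enzymes of the shared linker (Xylt1, Xylt2, B4galt7, B3galt6, B3gat3 and Fam20b), of which Xylt2 was called higher (0.43, limma adjusted p = 0.0405) and the others were not called, so its counts are not those of heparan sulfate alone. Ext1, a subunit of the polymerase, rose from 289 ± 64.0 to 550 ± 102 (0.93, limma adjusted p = 0.00882), and Hpse, the chain-cutting heparanase, from 27.2 ± 5.79 to 62.3 ± 21.3 (1.13, limma adjusted p = 0.0179; 0.05005 without control replicate 2). Extl3, which starts the chain, fell from 1318 ± 164 to 962 ± 70.0 (-0.45, limma adjusted p = 0.0168). That call was not kept under the scaling without muscle genes (-0.29), nor without control replicate 2 or knockout replicate 4. Of 15 tested genes on the chondroitin and dermatan sulfate list 9 were called higher and 0 lower (60% called, median 0.78). Chsy1, a chain synthase, rose from 122 ± 22.6 to 261 ± 56.1 (1.09, limma adjusted p = 0.00674), its partner Chpf from 308 ± 101 to 768 ± 203 (1.33, limma adjusted p = 0.00709), and Dse, the epimerase that makes dermatan sulfate, from 146 ± 50.2 to 354 ± 66.2 (1.30, limma adjusted p = 0.00646). Whether the 2 lists differed was not tested. For the heparan sulfate list the calls numbered 2 without control replicate 2 or knockout replicate 4 and 3 without control replicate 4, while the scaling without muscle genes gave 8 higher and 0 lower, and quantile normalisation 1 higher and 0 lower. For the chondroitin and dermatan sulfate list they numbered 5 without knockout replicate 2, 4 without knockout replicate 4 and 5 under quantile normalisation.

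**Figure D5:**
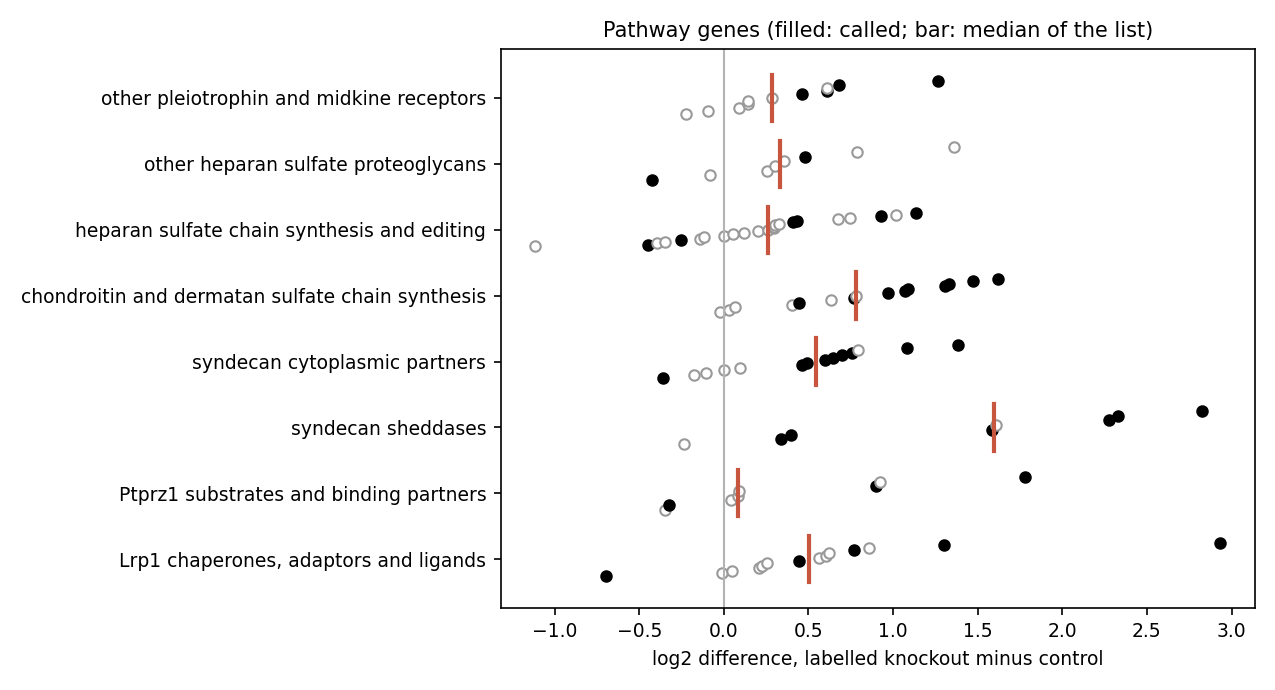
Log2 difference (horizontal axis, libraries labelled knockout minus control) of each tested gene on the 8 pathway lists (rows); filled points were called, open points were not, and red bars are list medians. The median is highest for the syndecan sheddases (1.598) and lowest for the Ptprz1 substrates and partners (0.09).

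Several metalloproteinases can shed syndecans from the cell surface. Of 8 genes tested, 6 were called higher and 0 lower, with a median of 1.598. Mmp14, a membrane-bound metalloproteinase, stood at 951, 720, 2187 and 605 normalised reads across the control libraries (replicates 1 to 4), against 6273, 4581, 3252 and 5370 across those labelled knockout (log2 difference 2.28, limma adjusted p = 0.00511). Adamts4 rose from 25.4 ± 16.2 to 116 ± 31.7 (2.33, limma adjusted p = 0.00828) and Adam10 from 485 ± 39.2 to 639 ± 38.7 (0.40, limma adjusted p = 0.0149). Mmp2, with means of 2730 ± 2027 and 7322 ± 2670, overlapped between the groups, since control replicate 3 had 5742. Its limma call (1.59, adjusted p = 0.0245) was lost on dropping control replicate 1, 2 or 4, or replicate 2 or 4 of the other group, with adjusted p-values of 0.0553 to 0.0739. Osteoclast and macrophage genes, whose sums are given above, moved with this list, Mmp9 stands on both the osteoclast and the shedding list, and their part in it was not tested. The list gave 3 calls without control replicate 2, control replicate 4 or knockout replicate 4.

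Proteins that bind the cytoplasmic tails of syndecans link them to the cytoskeleton and to signalling. Of 14 genes tested, 8 were called higher and 1 lower, with a median of 0.54. Actn1, the actin crosslinker alpha-actinin 1, rose from 349 ± 56.7 to 738 ± 104 (1.08, limma adjusted p = 0.00397), the kinase gene Src from 128 ± 53.5 to 331 ± 105 (1.38, limma adjusted p = 0.0118), and Sdcbp, the gene of syntenin, which binds the tail of all syndecans, from 910 ± 124 to 1379 ± 196 (0.60, limma adjusted p = 0.0128). The gene called lower was Prkca, the protein kinase C alpha that Sdc4 recruits (log2 difference -0.36, limma adjusted p = 0.0179), named because the count is small; it was not called without knockout replicate 4 (limma adjusted p = 0.0525) or under the scaling without muscle genes (-0.21). The list had 5 calls without knockout replicate 2 and 3 without knockout replicate 4, and under the scaling without muscle genes it had 8 higher and 0 lower.

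Substrates and partners of Ptprz1 had a median of 0.09, with 2 of 8 tested genes called higher and 1 lower. Ncam1, an adhesion molecule, rose from 201 ± 65.3 to 364 ± 49.96 (0.90, limma adjusted p = 0.0176). Tnc, the injury-induced matrix protein tenascin C, went from 1465 ± 1138 to 3788 ± 863 (1.78, limma adjusted p = 0.0462), a call lost on dropping any 1 of 5 libraries: control replicates 2 and 4 and knockout replicates 1, 2 and 4 (limma adjusted p-values of 0.0891 to 0.122), and not made by edgeR or DESeq2. Arhgap35 went from 936 ± 97.3 to 746 ± 47.1 (-0.32, limma adjusted p = 0.0378), and its call was lost on dropping any library but control replicate 2 (limma adjusted p-values of 0.0544 to 0.0991) and under the scaling without muscle genes (-0.17). This list had 1 call without control replicate 4 or knockout replicate 1, 2 or 4, and under the scaling without muscle genes it had 3 higher and 0 lower.

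Of the chaperones, adaptors and ligands of Lrp1, 14 were tested. Of these, 4 were called higher and 1 lower, with a median of 0.50. Plat, the tissue plasminogen activator cleared by Lrp1, rose from 119 ± 24.6 to 295 ± 58.5 (1.30, limma adjusted p = 0.00431), and the collagenase gene Mmp13 from 1220 ± 975 to 7645 ± 4004 (2.93, limma adjusted p = 0.00993). Lpl, lipoprotein lipase, fell from 10049 ± 2017 to 6247 ± 1460 (-0.69, limma adjusted p = 0.0246), a call lost on dropping control replicate 2 or 4, or replicate 1 or 2 of the other group (adjusted p-values of 0.0611 to 0.0655). The list gave 2 calls without control replicate 2, control replicate 4 or knockout replicate 2, and 3 without knockout replicate 1 or 4. Under the scaling without muscle genes it had 7 higher and 1 lower, and under quantile normalisation 6 higher and 0 lower.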

How the data were processed

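The 8 libraries of mouse knee joint RNA were grouped by sample title into 4 control and 4 knockout libraries. Per the labels and the submitters' processing notes, the authors aligned reads to mm10 with HISAT2, counted them with featureCounts and, per the series' design text, ran DESeq2 with its standard normalisation; versions, annotation, strand use and filter values are not given in the sources used here. The deposited values are a normalised signal, the read count of a gene divided by a size factor of the library: each column holds integer multiples of 1 step in 100% of genes (tolerance 0.01). In control replicate 2 and knockout replicate 1 that step (1.01 and 0.997) was so close to 1 that it carries little information. The whole reads so recovered were used for edgeR, DESeq2 and the depths. Among the gene names 23 were whole numbers and 12 were repeats, and all stayed in.

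The low-value filter asked for 10 or more in 4 or more libraries; genes that passed were tested with limma 3.58.1 on log2 values with a pseudocount of 1 (eBayes with an intensity trend, Benjamini-Hochberg over 14949 genes, called at an adjusted p under 0.05). On simulated counts of 14772 genes with 199 changed, limma called 185, 10 of them falsely. It found 77% of the changes of log2 1 and 99.0% of those of log2 2. The simulation gave all genes a dispersion of 0.05 and held no shift in tissue make-up. Its rates of false calls and of changes found therefore need not hold for these libraries. Lengths and positions are from GENCODE M21 (same build; 99.2% of names matched) and promoters from RefSeq. Within groups, each of 12 library pairs exceeded counting noise (chi-square per degree of freedom 25.0 to 66.9). The genes and lists were chosen with earlier results of these data known. Named genes are the 8 genes, Loxl2, up to 3 called genes of smallest p per pathway list, list genes with a mean of at least 5000, the 3 most alike genes for each, and the highest gene of each marker list where used; Ctgf stands in the lists for Ccn2, its current symbol. Alternatives were pseudocounts of 0.5 and 5, no filter, other scalings, the replicate block, edgeR 4.0.16, DESeq2 1.42.0, a muscle covariate and leaving out each library.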

Additional observations from a re-analysis of the deposited data

Results flagged for a closer look

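In 94 groups of 4 libraries examined for the genes above, 9 had a library far from the other 3. Far was judged by the gap to the nearest library over the range of the 4 normalised counts. A rate of about 1 in 20 would hold for independent, normally distributed values. The genes share the same 8 libraries, so no excess over chance is read from this count. Among the 8 genes the flagged libraries were knockout replicate 3 for Sdc3, at 1922 normalised reads the highest of its group, and knockout replicate 2 for Sdc4, at 633.7 the lowest of its group. Loxl2 was far above the other control libraries in control replicate 3, at 1135, and so was Mmp2 in the same library, at 5742. Among the pathway genes, the lowest library labelled knockout stood apart for Arhgap35 (676), Hspg2 (4035) and Tnc (2507). Among the marker genes, the plasma cell gene Jchain was far above the rest in 1 control library (271) and the neutrophil gene S100a9 in 1 library labelled knockout (1221).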

How the results depend on the processing

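Over 18 alternative settings, Ptn, Mdk, Lrp1, Sdc1 and Sdc3 kept their direction and their call in 17, the exception being the muscle covariate. With that covariate 0 of the 8 genes, 0 pathway genes and 0 genes in all were called. The log2 differences (SE) were 3.87 (0.83) for Ptn, 2.03 (0.63) for Mdk and 0.38 (0.37) for Lrp1. They were 1.32 (0.78) for Sdc1, 1.28 (0.50) for Sdc3 and 0.33 (0.25) for Sdc4. For Ptprz1 (-0.70, SE 1.84) and Sdc2 (-0.38, SE 0.77) the sign was reversed, by less than the SE in both. The cause was not tested, beyond the overlap of score and group given above. Sdc2 was called under quantile normalisation (1.27) and under the scaling without muscle genes (1.27). Under quantile normalisation the calls of Gpc1, Extl3, Hpse, Arhgap35, Lpl and Prkca were not made. DESeq2 called 4 of the other heparan sulfate proteoglycans against 2. Leaving out 1 library gave 0.91 to 1.44 for Sdc2 and 0.35 to 0.48 for Sdc4, 21 to 42 called pathway genes against 44, and 1751 (without knockout replicate 4) to 3841 called genes against 3461, with 1887 without control replicate 2 and 2194 without control replicate 4. With the replicate number as a block 6 of the 8 genes were called as before, 27 pathway genes and 2018 genes in all; under the block the calls of Agrn, Mmp2, Tnc, Arhgap35 and Prkca were not made, and the heparan sulfate list had 3 calls against 6 and the chondroitin and dermatan sulfate list 5 against 9, the cytoplasmic partners 4 against 9, the Ptprz1 partners 1 against 3 and the other proteoglycans 1 against 2; same-numbered libraries deviated together in 1 of 4 pairs (correlations -0.23 to 0.21) and 1 of 4 control libraries correlated best with its own number, so the numbers were not taken as pairs. edgeR and DESeq2 called the same 6 of the 8 genes. Depth is lowest for Ptprz1, whose values rest on 2 to 124 reads per library.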
